A study of Mus musculus with 4 samples.

Results

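T cells that carried transcripts of natural killer (NK) cell receptors but none of the coreceptor genes Cd4 and Cd8b1 were examined in injured mouse kidney. A cell barcode was counted as such a cell when it had at least 1 of the CD3 genes Cd3d, Cd3e and Cd3g, at least 2 of Cd3d, Cd3e, Cd3g, Trac and Trbc2, and at least 2 of the 4 receptor genes Klrb1c, Klrc1, Klrk1 and Klrd1. It also had to lack every unique molecular identifier (UMI, 1 counted transcript molecule) of Cd4, Cd8b1, Csf1r, Cd79a and Pecam1, which mark helper T cells, cytotoxic T cells, macrophages, B lymphocytes and endothelium. The cells were thus chosen by their own measured counts of these genes, and 650 of 40939 cells met the rule. They came from the kidneys of 4 wild-type mice given contrast-induced acute kidney injury (CIAKI), in which a contrast agent used for X-ray imaging impairs the kidney. Each mouse gave 1 droplet library, and the series describes the mice as independent replicates. Control mice were not analysed here, so that each comparison below is between cell classes inside injured kidneys and none measures the effect of contrast. The sources used here do not give the agent, its dose, the time of collection, the strain or the age of the mice.

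Most T cells recognise peptides through an alpha-beta receptor together with CD4 or CD8. A minority lacks both coreceptors and carries NK receptors. It includes gamma-delta T cells, invariant NKT cells, whose alpha-beta receptor recognises lipids on CD1d, and other innate-like alpha-beta T cells. Many of these develop under the transcription factor PLZF, encoded by Zbtb16, sit in tissues rather than circulate and release cytokines within hours of injury. Double-negative T cells of this kind are a known population of the mouse kidney. Klrb1c encodes NK1.1, Klrk1 the activating receptor NKG2D, and Klrd1 and Klrc1 the 2 chains of the inhibitory CD94-NKG2A receptor.

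The 4 libraries were unequal. Mouse 4 stood apart, with a median of 2077 UMIs per cell against 5549 to 5815 in mice 1 to 3, and with T cells at 24.1% of its cells against 2.20% to 2.94%. The labels place all 4 mice in batch 1. Mouse 4 shared 1 kept barcode with mouse 2 and 0 with mice 1 and 3, while the pairs among mice 1 to 3 shared 22, 25 and 40. Cells with at least 2 of the endothelial genes Pecam1, Flt1, Emcn, Egfl7 and Kdr, and with no T cell or NK receptor transcript, were found in every library, at 1186, 2215, 4309 and 1973 cells. Because 573 of the 650 cells came from mouse 4, values are given per mouse and every comparison is given with and without it.

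The cells numbered 18 of 7085 in mouse 1, 16 of 8858 in mouse 2, 43 of 12904 in mouse 3 and 573 of 12092 in mouse 4. As shares of all cells these were 0.254% (95% exact interval 0.151 to 0.401), 0.181% (0.103 to 0.293), 0.333% (0.241 to 0.449) and 4.74% (4.37 to 5.13). Mouse 4 was far above the other 3 and its interval did not meet theirs. Intervals cover counting error only. As shares of T cells, which numbered 156, 198, 379 and 2912, the values were 11.5%, 8.08%, 11.4% and 19.7%, or 12.7% ± 4.94 (SD, n = 4). Mouse 4 was again the highest, but here the gap was much smaller.

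NK receptor transcripts were not particular to T cells without coreceptors. All T cells with at least 2 of the 4 receptors numbered 78, 86, 81 and 857 in mice 1 to 4. Cells without Cd4 and Cd8b1 were 23.1%, 18.6%, 53.1% and 66.9% of them. Cells with Cd8b1 alone were 68.0%, 79.1%, 44.4% and 29.3%, and cells with Cd4 alone 7.69%, 2.33%, 2.47% and 3.38%. The receptor-positive T cells of mice 1 and 2 were thus mostly Cd8b1-positive, and those of mouse 4 were mostly without either coreceptor. Mouse 4 was also the shallowest library, where a coreceptor transcript is more easily missed, and the part of depth in this order was not tested. When every cell was first thinned to 1000 UMIs and the rule applied afterwards, the cells were 7.91% of T cells on average.

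**Figure D1:**
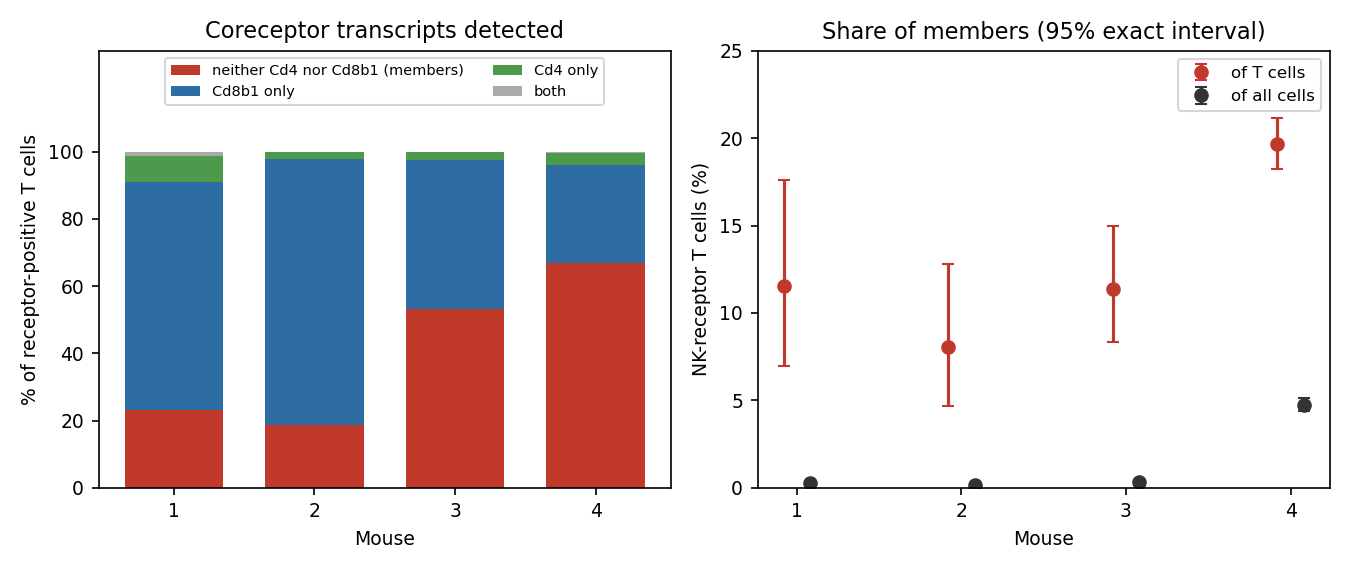
Left, T cells with at least 2 of the 4 receptor genes, split by the coreceptor transcripts detected, in percent for each mouse. Right, cells that met the rule as a percent of T cells (red) and of all cells (black), with 95% exact binomial intervals. Cells without either coreceptor make up 23.1% and 18.6% of receptor-positive T cells in mice 1 and 2 and 53.1% and 66.9% in mice 3 and 4.

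The genes used to choose the cells are given here as a description. Klrk1 was detected in 94.4%, 75.0%, 88.4% and 80.3% of the cells of mice 1 to 4, Klrd1 in 61.1%, 68.8%, 41.9% and 79.9%, and Klrc1 in 61.1%, 56.3%, 65.1% and 52.0%. Klrb1c was detected in 33.3%, 68.8%, 46.5% and 24.3%, so that in 3 of the 4 mice most of the cells had no NK1.1 transcript. Cd3e was found in 94.4%, 81.3%, 79.1% and 43.5%. Exactly 2 of the 4 receptors, the smallest number admitted, were found in 12 of 18, 8 of 16, 27 of 43 and 384 of 573 cells. Just outside the rule lay 9, 4, 32 and 533 T cells without Cd4 and Cd8b1 that had 1 receptor. In mouse 4, where both sides of this limit were well filled, Zbtb16 was detected in 14.1% of cells with 2 receptors and 17.8% of those with 1. The voltage-gated potassium channel gene Kcnq5, to which the results below return, was detected in 41.2% and 37.5%. For both genes the values on the 2 sides of the limit lay close together in mouse 4, and the limit is a setting of the rule.

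The median depth of the cells was 4080 UMIs in mouse 1, 3704 in mouse 2, 5192 in mouse 3 and 1724 in mouse 4. The medians of Cd8b1-positive T cells were 4930, 6008, 4878 and 2004, and those of Cd4-positive T cells were 5640, 6372, 4685 and 2018. The cells were thus shallower than both reference classes in mice 1, 2 and 4 and deeper in mouse 3.

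Transcripts of the gamma-delta receptor were the first feature that the rule did not use. At least 1 UMI of the delta constant gene Trdc or the gamma constant genes Trgc1, Trgc2 and Trgc4 was found in 6 of 18, 5 of 16, 22 of 43 and 113 of 573 cells. These are 33.3%, 31.3%, 51.2% and 19.7%. The same share was 1.33%, 3.81%, 17.8% and 4.83% of Cd8b1-positive T cells and 6.25%, 0.0%, 6.35% and 5.26% of Cd4-positive T cells. In each mouse the cells had the highest share of these 3 classes. T cells without Cd4 and Cd8b1 that had 0 or 1 receptor lay nearer, at 10.0%, 11.1%, 19.9% and 11.3%. In mouse 4 the summed level of the 9 gamma-delta genes was higher in that class, at 353 CPM against 209 CPM, and in mice 1 to 3 it was lower, at 272, 85.9 and 353 CPM against 365, 299.8 and 416 CPM. In endothelial-marker cells, which should lack these transcripts and had medians of 6271, 6996, 4349 and 2041 UMIs, the share was 0.0843%, 0.0903%, 0.0% and 0.152%. That background lay below the share of the cells in every mouse. With each cell thinned to 1000 UMIs, the shares were 16.7%, 6.25%, 19.0% and 12.7% in the cells against 0.0%, 1.90%, 8.15% and 2.35% in Cd8b1-positive T cells. The cells were again the higher of these classes in each mouse.

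The gamma genes supplied most of this signal. Trgc2 was detected in 27.8%, 12.5%, 44.2% and 9.08% of the cells and Trgc4 in 22.2%, 25%, 32.6% and 6.28%. Trdc itself was detected in 0 of 18, 0 of 16, 6 of 43 and 20 of 573. A count of 0 allows a share of cells with a Trdc UMI of up to 16.7% in mouse 1 and 18.8% in mouse 2, taking 3 counts as the limit, and does not limit the cells that express it. Trgc1 and Trgc2 are near-identical copies, so that reads may be divided between them in an unknown way. Most of the cells also had alpha-beta constant transcripts. Trac, Trbc1 or Trbc2 was found in 94.4%, 75.0%, 95.3% and 95.1%, although Trac and Trbc2 helped to choose the cells. A gamma or delta constant gene and Trac were found together in 22.2%, 18.8%, 34.9% and 4.54% of the cells.

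Zbtb16, the PLZF gene, was detected in 33.3%, 68.8%, 55.8% and 17.3% of the cells. Cd8b1-positive T cells had 2.67%, 14.3%, 7.41% and 2.41%, and Cd4-positive T cells 12.5%, 6.25%, 12.7% and 6.88%. The cells were again highest of these 3 classes in every mouse, while T cells without Cd4 and Cd8b1 that had 0 or 1 receptor had 30.0%, 44.4%, 30.9% and 12.2%. Zbtb16 is also a gene of other kidney cells, and endothelial-marker cells had it in 56.1%, 72.3%, 62.0% and 21.1%. The 4 mice fell in the same order in the cells and in the endothelial-marker cells. Cd8b1-positive T cells, at no more than 14.3%, and T cells with 0 or 1 receptor kept this order too, and Cd4-positive T cells did not. The part of endothelial RNA in these shares was not tested. Among the cells without a UMI of Flt1, Emcn, Egfl7 or Kdr, which number 14, 11, 33 and 544, Zbtb16 was detected in 35.7%, 63.6%, 54.5% and 17.5%, close to the shares in all of them. With each cell thinned to 1000 UMIs after it was chosen, Zbtb16 was found in 16.7%, 37.5%, 16.7% and 8.96% of the cells against 0.0%, 2.86%, 0.741% and 0.314% of Cd8b1-positive T cells. When cells were instead chosen after thinning, the mean share with Zbtb16 was 2.08%, against 43.8% ± 23.0 (SD, n = 4) without thinning. That step changes both the depth and the cells chosen, and their parts were not separated.

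Cd8a, the other CD8 chain and not part of the rule, was detected in 22.2%, 0.0%, 16.3% and 6.98% of the cells, against 77.3%, 85.7%, 77.8% and 47.1% of Cd8b1-positive T cells. A minority of the cells therefore had a CD8 transcript without Cd8b1. Cells with none of a gamma or delta constant gene, Zbtb16 and Cd8a made up 38.9%, 31.3%, 14% and 61.6%. The share was highest in mouse 4, which was also the shallowest. Cells with both a gamma or delta constant gene and Zbtb16 made up 27.8%, 31.3%, 30.2% and 4.36%.

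**Figure D2:**
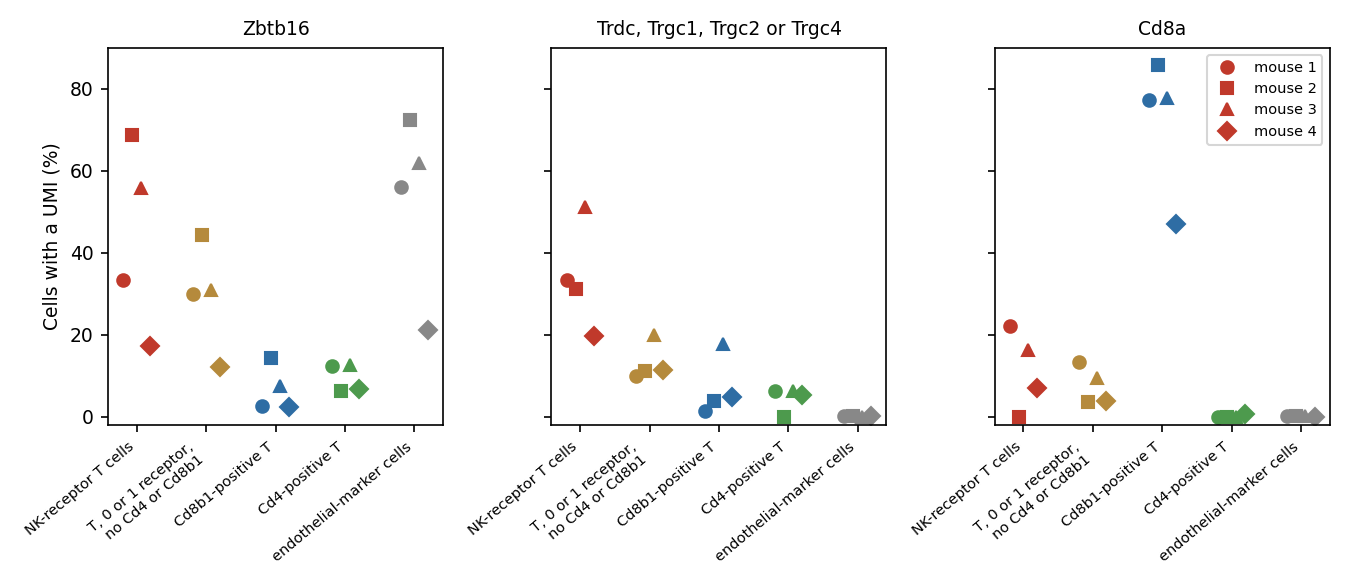
Percent of cells with at least 1 UMI of Zbtb16 (left), of any of Trdc, Trgc1, Trgc2 and Trgc4 (middle) and of Cd8a (right), by cell class; each point is 1 mouse. NK-receptor T cells lie above the Cd8b1-positive and Cd4-positive T cells of the same mouse for Zbtb16 and the gamma and delta genes, while endothelial-marker cells reach 72.3% for Zbtb16 and at most 0.152% for the gamma and delta genes.

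Transcripts of the invariant NKT receptor were sparse. Trav11, the variable segment of its alpha chain, was found in 1 of 18, 0 of 16, 2 of 43 and 2 of 573 cells and in no Cd8b1-positive, Cd4-positive or endothelial-marker cell of any mouse. Traj18, the joining segment, was detected in 22.2%, 0.0%, 11.6% and 19.7% of the cells, but also in 12.0%, 13.3%, 4.44% and 7.84% of Cd8b1-positive T cells. A joining segment counted alone does not show that it was joined to Trav11. Il4, a cytokine that NKT cells are known to release, had 2, 2, 2 and 133 UMIs in the cells of mice 1 to 4. Cd8b1-positive T cells had 0, 0, 4 and 0 and Cd4-positive T cells 0, 0, 1 and 10. As CPM, the count of a gene scaled to a common total of all UMIs of a class in a mouse, the cells had 28.0, 31.6, 7.18 and 106 CPM. Il4 did not pass the filter on low counts against Cd8b1-positive T cells and no test is given.

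Foxp3, the regulator of regulatory T cells, had no UMI in any of the cells. In mouse 4 this allows up to 0.524% of cells with a Foxp3 UMI, which is no limit on cells expressing it. Foxp3 also had no UMI in the Cd4-positive T cells of mice 1 and 3. Of the 12 genes listed for NK cells, Ncr1 and Eomes were rare. Ncr1, the NK receptor NKp46, was detected in 5.56%, 0.0%, 11.6% and 0.524%, and Eomes, an NK and memory T cell factor, in 0.0%, 6.25%, 6.98% and 1.22%. The adaptor genes Tyrobp and Fcer1g of that list were more frequent, at 12.9% and 25.8% on average over the mice. The summed list, which includes the granzyme gene Gzma, was at 393, 1436, 4930 and 894 CPM. In Cd8b1-positive T cells it was at 1383, 830, 1905 and 551.5 CPM. Tbx21, which encodes the type 1 factor T-bet, was common, at 66.7%, 62.5%, 74.4% and 12.0% of the cells, and nearly as common in Cd8b1-positive T cells, at 65.3%, 53.3%, 62.2% and 13.1%.

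Genes of the Ly49 family, receptors of NK cells for MHC class I, were seen in a few of the cells. Klra1 was detected in 0.0%, 18.8%, 18.6% and 2.62%, and had 0 UMIs in all Cd8b1-positive T cells. Klra7 was detected in 0.0%, 12.5%, 9.30% and 0.873%, and Klra9 in 5.56%, 0.0%, 14% and 4.01%. Ly49 genes resemble each other closely, and reads may be assigned to the wrong member.

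The first comparison asked how the cells differ from conventional cytotoxic T cells of the same kidneys. The NK-receptor T cells had more transcripts of Kcnq5, Zbtb16, Clnk, Cd40lg and gamma constant genes, and fewer of Gzmk, Itga4, Ccl3 and the inhibitory receptor gene Pdcd1. The main cytolytic genes Gzma, Gzmb and Prf1 did not pass the test. For each mouse the raw counts of all cells of a class were summed, and the sums were compared with edgeR's quasi-likelihood test with the mouse as a block and Benjamini-Hochberg adjustment over all genes tested. Against Cd8b1-positive T cells (75, 105, 135 and 663 cells), 76 of 6889 genes were higher in the NK-receptor T cells, or 1.1%, and 60 were lower, or 0.871%, together 1.97%. The median log2 fold change of all genes was -0.05. Without mouse 4 the counts were 33 higher and 8 lower, without mouse 3 they were 121 and 142, and without mouse 1 and mouse 2 the lower genes numbered 35 and 30. DESeq2 called 49 higher and 25 lower, and without the mouse block 3 and 1 were called. Over all 6889 genes tested, 51 had every NK-receptor value above every Cd8b1-positive value, and 35 had every value below. Log2 fold changes below are NK-receptor T cells over the other class, and levels are CPM of the summed class in mice 1 to 4. The standard error (SE) beside them was worked back from the fold change and the edgeR test statistic.

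Kcnq5 was at 1052, 1199, 237 and 425 CPM in the NK-receptor T cells and at 12.6, 30.1, 22.7 and 20.5 CPM in Cd8b1-positive T cells. The lowest of the first group was well above the highest of the second. The log2 fold change was 4.61 ± 0.301 (SE, edgeR adjusted p = 1.87e-09). Clnk, an adaptor of immune receptor signalling related to SLP-76, was at 70.1, 252, 312 and 27.2 CPM against 10.1, 1.43, 5.05 and 0.603 CPM. The groups did not overlap, although the 4 mice spread widely, and the log2 fold change was 5.40 ± 0.459 (adjusted p = 1.96e-07). Clnk had 10 UMIs in all the Cd8b1-positive T cells against 142 in the NK-receptor T cells, so it passed the filter only through the class where it is high, and its values are a description. Zbtb16 was at 154, 552, 172 and 102 CPM against 5.06, 34.4, 36.6 and 12.7 CPM, without overlap and with mouse 2 the highest (3.09 ± 0.294, adjusted p = 1.12e-06).

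Cd40lg encodes the CD40 ligand, best known from helper T cells. It was at 224, 158, 53.8 and 138 CPM in the NK-receptor T cells against 2.53, 30.1, 10.1 and 16.3 CPM, again without overlap (2.98 ± 0.351, edgeR adjusted p = 1.99e-05). Socs2, a feedback inhibitor of cytokine signalling, was at 238, 331, 122 and 104 CPM against 15.2, 25.8, 49.2 and 11.5 CPM. Its log2 fold change was 2.71 ± 0.324 (adjusted p = 2.07e-05). Tmem64 was at 210, 268, 115 and 67.9 CPM against 20.2, 12.9, 17.7 and 8.44 CPM (3.18 ± 0.313). Each NK-receptor value of these 3 genes was above every Cd8b1-positive value. Spry2, an inhibitor of receptor tyrosine kinase signalling, and Sulf2, an extracellular sulfatase, were also higher, by 2.82 and 3.42 on the log2 scale. Asb2, a ubiquitin ligase subunit, was higher by 2.5, with overlap. The calls of Kcnq5, Clnk, Zbtb16, Cd40lg, Socs2, Tmem64, Spry2 and Sulf2 were kept when any 1 mouse was left out, and that of Asb2 was lost without mouse 4. None of these genes would have passed the filter on low counts through the Cd8b1-positive T cells alone. They had from 10 UMIs (Clnk) to 82 UMIs (Socs2) there, so their values are a description.

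Of the 9 genes listed for gamma-delta T cells, 4 passed the filter on low counts and 3 of these were higher. Trgc1 was at 56.1, 31.6, 68.2 and 43.1 CPM against 0.0, 2.87, 6.31 and 3.01 CPM (3.66 ± 0.471, edgeR adjusted p = 5.74e-05). Trgc4 was at 112, 126, 68.2 and 32.8 CPM against 0.0, 0.0, 8.84 and 9.64 CPM (3.05 ± 0.574). Trgc2 was at 140, 31.6, 133 and 45.5 CPM against 2.53, 2.87, 69.4 and 16.3 CPM, with overlap (1.59 ± 0.407, adjusted p = 0.0427). Trgc1 and Trgc4 kept the call without any 1 mouse, and Trgc2 lost it without mouse 1, 2 or 4. Genes that entered the test only because they were high in the NK-receptor T cells had to differ, so these counts are a description. Of 9 genes listed for alpha-beta T cells, all were tested and 3 were lower, namely the surface regulator Cd5 (-1.06), the commitment factor Bcl11b (-0.75) and Themis (-1.28), which acts in thymic selection. The median of that list was -0.65. The call of Themis was lost without mouse 4, that of Cd5 without mouse 2 or 4 and that of Bcl11b without mouse 1, 2 or 4.

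**Figure D3:**
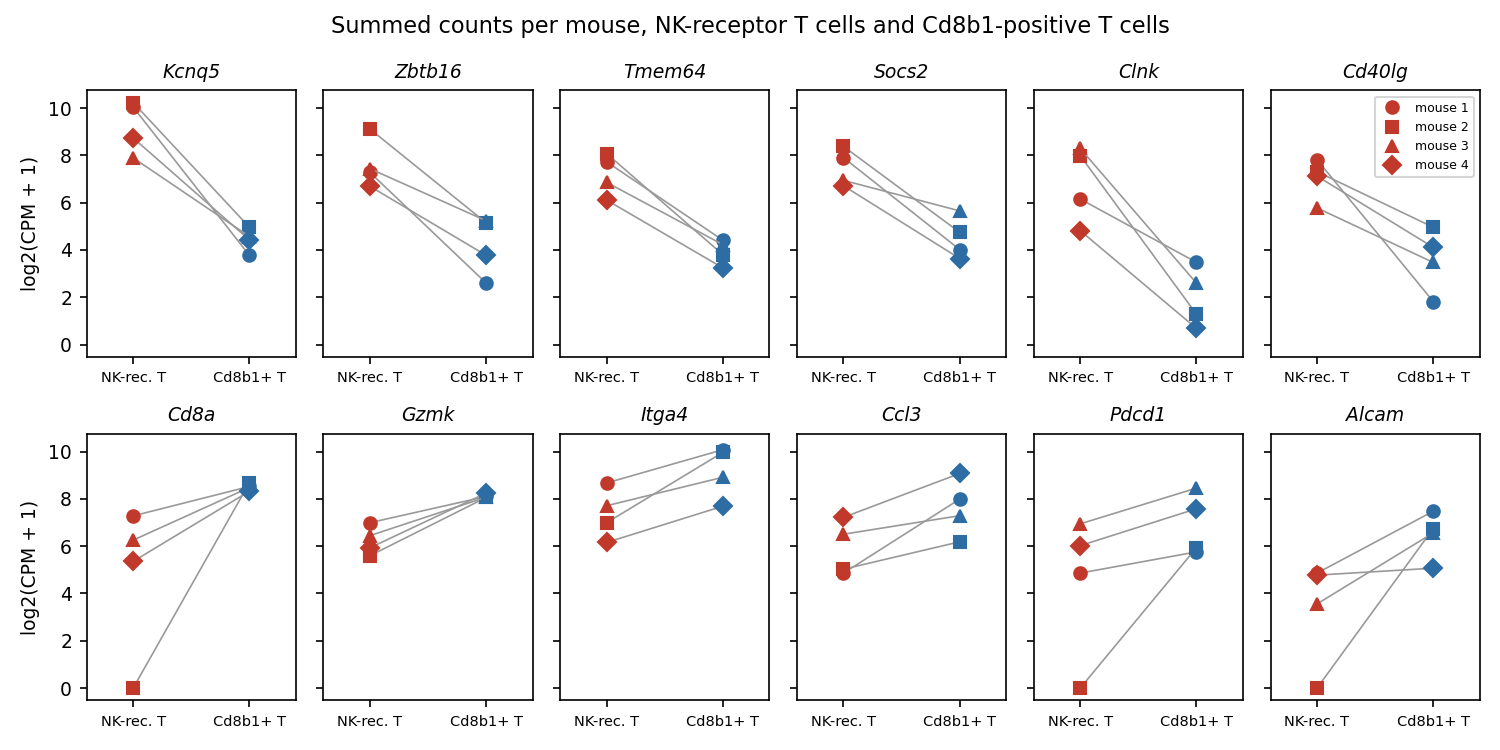
Level of 12 genes as log2(CPM + 1) of the summed class, in NK-receptor T cells and in Cd8b1-positive T cells; each line joins the 2 classes of 1 mouse. Kcnq5, Zbtb16, Tmem64, Socs2, Clnk and Cd40lg are higher in NK-receptor T cells in all 4 mice, and Cd8a, Gzmk, Itga4, Ccl3, Pdcd1 and Alcam are lower in all 4.

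Genes of recent activation, signalling and cytokine response were in part higher. Dusp1, an immediate early phosphatase, was at 1613, 1231, 1130 and 1175 CPM against 276, 351, 674 and 463 CPM, without overlap (1.49 ± 0.236, edgeR adjusted p = 5.98e-04). Of the 8 immediate early genes, Dusp1 and Jun were higher and the other 6 did not pass. The call of Jun was lost without mouse 1 or mouse 2. Txk, a Tec family kinase, was at 547, 600, 466 and 245 CPM against 172, 142, 255 and 119 CPM (1.26 ± 0.213). Satb1, a chromatin organiser, was at 757, 1231, 732 and 185 CPM against 205, 181, 463 and 67.5 CPM (1.56 ± 0.25). Both were higher in 4 of 4 mice, and the ranges overlapped because mouse 4 was low in both classes. Of 12 cytokine receptor genes tested, 3 were higher, namely Il12rb2 (1.10), Il7r (0.84) and Il2rb (0.75). Il12rb2 lost the call without mouse 4, and the other 2 lost it without mouse 1, 2 or 4.

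Klrc2 encodes NKG2C, the activating partner of CD94. It was at 252, 363, 190 and 121 CPM against 164, 116, 46.7 and 15.1 CPM (1.81 ± 0.262, edgeR adjusted p = 2.92e-04). Each mouse was higher in the NK-receptor T cells. Klrc2 is a near-identical copy of Klrc1, which chose the cells, and reads may be divided between them, so that its difference is uncertain. Among 8 tissue residency genes tested, 1 was higher, Rgs2, which dampens G-protein signalling (1.22 ± 0.191). Cxcr6, the receptor that holds T cells in tissue, was at 687, 252, 212 and 487 CPM against 483, 394, 231 and 480 CPM, and Cd69 at 435, 473, 388 and 550 CPM against 377, 380, 336 and 733 CPM. Their adjusted p-values were 0.946 and 0.990, and both genes were abundant in both classes.

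Cd8a was lower, at 154, 0.0, 75.3 and 39.95 CPM against 367, 409, 356 and 319 CPM, a log2 fold change of -2.68. The absence of Cd8b1 in the rule selects against CD8 cells, so this difference is tied to the rule. Gzmk, the granzyme of memory-like cytotoxic T cells, was at 126, 47.3, 86.1 and 59.9 CPM against 273, 265, 268 and 302 CPM. The groups did not overlap and the second was narrow (-2.04 ± 0.253, edgeR adjusted p = 3.48e-05). Itga4, the alpha-4 integrin used in homing, was at 407, 126, 208 and 70.3 CPM against 1080, 999.6, 481 and 206 CPM, lower within each mouse (-1.72 ± 0.234, adjusted p = 1.11e-04). Both calls were kept when any 1 mouse was left out.

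Among 7 inhibitory receptor genes tested, 3 were lower and 0 higher, with a median of -0.77. Pdcd1, which encodes PD-1, was at 28.0, 0.0, 122 and 63.9 CPM against 53.1, 60.2, 350 and 190 CPM (-1.69 ± 0.254, edgeR adjusted p = 3.31e-04). Ctla4 was lower by 1.30 on average on the log2 scale but was higher in mouse 1, at 182 against 164 CPM. Of 6 cytokine and chemokine genes tested, the chemokines Ccl3 (-1.73) and Ccl4 (-1.41) were lower. Ccl3 was at 28.0, 31.6, 89.7 and 148 CPM against 253, 71.7, 155 and 537 CPM. The calls of Pdcd1 and Ccl3 were lost without mouse 4, that of Ctla4 without mouse 2 or 4 and that of Ccl4 without mouse 1, 2 or 4. Without mouse 4 the log2 fold change of Pdcd1 was -1.56 (adjusted p = 0.087) and that of Ccl3 -1.32 (adjusted p = 0.22). Stmn1, a tubulin regulator abundant in dividing cells, was lower (-2.64). Eomes was lower (-1.97), as was Runx3 (-1.0), a factor of CD8 T cell fate, and both calls were lost without mouse 1 or 4. Pdcd1 and Eomes would not have passed the filter on low counts through the NK-receptor T cells alone, so their values are a description.

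Of 11 cytotoxicity genes tested, 2 were lower (Gzmk and the granule membrane gene Nkg7) and 1 was higher (Serpinb6b, a granzyme inhibitor), with a median of -0.12. Nkg7 lost its call without mouse 1, 2 or 4, and Serpinb6b without mouse 2 or 4. Gzma was at 140, 757, 3297 and 284 CPM in NK-receptor T cells and at 1039, 508, 1223 and 307 CPM in Cd8b1-positive T cells. Gzmb was at 421, 600, 5687 and 45.5 CPM against 738, 429, 4990 and 147 CPM. Prf1, which encodes perforin, was at 154, 142, 258 and 28.8 CPM against 235, 156, 173 and 38.6 CPM. Mouse 3 was the highest of the 4 for Gzma and Gzmb in both classes, mouse 4 the lowest for Gzmb and Prf1, and the classes overlapped. The log2 fold changes were -0.03 ± 0.374, -0.49 ± 0.288 and -0.12 ± 0.239 (edgeR adjusted p = 1.00, 0.647 and 0.947). Ifng was at 182, 78.9, 126 and 344 CPM against 197, 141, 297 and 381 CPM (adjusted p = 0.208). Ccl5 was at 3969, 1152, 7101 and 5887 CPM against 7390, 6209, 5354 and 18862 CPM (-1.21 ± 0.333, adjusted p = 0.0696). These misses do not show that the classes are alike.

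**Figure D4:**
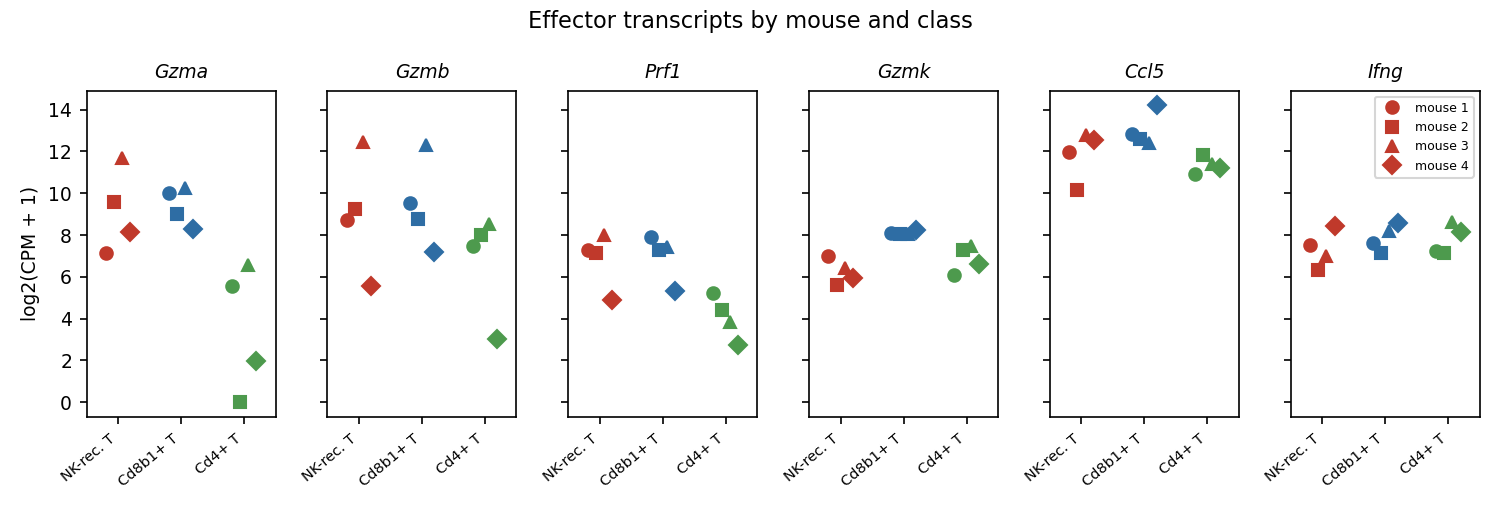
Level of Gzma, Gzmb, Prf1, Gzmk, Ccl5 and Ifng as log2(CPM + 1) of the summed class, in NK-receptor, Cd8b1-positive and Cd4-positive T cells; each point is 1 mouse. Gzmk is between 47.3 and 126 CPM in NK-receptor T cells and between 265 and 302 CPM in Cd8b1-positive T cells, while Gzma, Gzmb and Prf1 spread over the mice and overlap between these 2 classes.

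The remaining lists had few calls against Cd8b1-positive T cells, and the medians below are of log2 fold changes over the genes tested. Of 8 innate-like genes tested of 10 listed, Zbtb16 and Il2rb were higher and the signalling receptor gene Slamf1 was lower (-1.15), with a median of 0.05. Of 5 NK cell genes tested of 12, Fcer1g, which encodes a signalling adaptor, was higher (1.05) and Eomes was lower, with a median of 0.69. Of 4 regulatory T cell genes tested of 6, the factor gene Ikzf2 was higher (1.91) and Ctla4 was lower, with a median of 0.81. Of 6 further NK receptor genes tested of 20, Klrc2 was higher and Cd160 was lower (-1.66), with a median of 0.55. Of 12 receptor signalling genes tested of 13, Fcer1g and Txk were higher, with a median of -0.10. Of 7 circulation genes tested of 8, Il7r and Satb1 were higher, with a median of 0.11. Of 11 chemokine receptor and integrin genes, Itga4 was lower, with a median of -0.51. Of 4 proliferation genes tested of 7, Stmn1 was lower, and it did not pass the filter without mouse 4. Of 8 interferon response genes tested, edgeR and DESeq2 called 0, with 2 at an unadjusted p under 0.05 and a median of -0.36. Of 2 type 2 innate lymphoid genes tested of 7, both tools called 0, with 1 at an unadjusted p under 0.05 and a median of 0.52. Several of these calls rested on single mice. Slamf1 lost its call without any 1 mouse, Fcer1g without mouse 4, and Ikzf2 without mouse 1, 2 or 3. Cd160 and Eomes lost theirs without mouse 1 or 4, Ctla4 without mouse 2 or 4, and Il2rb and Il7r without mouse 1, 2 or 4. Slamf1 and Cd160 would not have passed the filter on low counts through the NK-receptor T cells alone, so their values are a description.

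Transcripts of other kidney cells were present in every T cell class. Summed markers of tubule cells (6 genes) were at 673, 253, 215 and 3138 CPM in NK-receptor T cells and at 961, 924, 853 and 2084 CPM in Cd8b1-positive T cells. Those of neutrophils (4 genes) were at 603, 915, 78.9 and 935 CPM against 1072, 1205, 1072 and 20.5 CPM, and those of macrophages (6 genes) at 70.1, 47.3, 725 and 324 CPM against 177, 297, 485 and 196 CPM. Those of endothelium (4 genes) were at 56.1, 78.9, 53.8 and 80.7 CPM against 25.3, 33.0, 37.9 and 24.1 CPM, higher in each mouse. No gene of these lists or of the B lymphocyte list passed the test of edgeR or of DESeq2 in any comparison. Against Cd8b1-positive T cells, 1 of 4 macrophage and 2 of 3 tubule genes tested had an unadjusted p under 0.05, 0 of 4 neutrophil genes did so, and the 4 endothelial genes did not pass the filter on low counts.

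Several of the leading genes were checked in the endothelial-marker cells. Kcnq5 was at 1.47, 4.61, 13.4 and 7.03 CPM there, Clnk at 0.883, 0.758, 0.562 and 0.620 CPM, and Cd40lg at 0.0, 0.525, 0.0803 and 0.414 CPM. All 3 lay far below the NK-receptor T cells. Zbtb16 was at 195, 332, 372 and 107 CPM there, above the NK-receptor T cells in mice 1, 3 and 4 and below them in mouse 2. Sulf2 was at 70.9, 103, 41.1 and 55.6 CPM, above them in mice 1 and 4 and below them in mice 2 and 3. In the NK-receptor T cells without an endothelial UMI, Zbtb16 was at 144, 319, 193 and 106 CPM and Sulf2 at 53.9, 159, 73.1 and 19.9 CPM. Kcnq5 was at 1060, 1001, 303 and 435 CPM in them. These levels were of the same order as in all the cells, with the largest shift for Zbtb16 in mouse 2.

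T cells without Cd4 and Cd8b1 that had 0 or 1 receptor (30, 27, 136 and 1422 cells) had some of the same transcripts. They also held more neutrophil transcripts, with summed markers at 20880, 17100, 2802 and 1293 CPM against 603, 915, 78.9 and 935 CPM in the NK-receptor T cells, and the part of this in the values below was not tested. Kcnq5 was at 356, 301, 96.0 and 206 CPM in them and Zbtb16 at 242, 258, 182 and 71.8 CPM. Cd40lg was at 136, 155, 126 and 178 CPM. Kcnq5 was higher in the NK-receptor T cells in 4 of 4 mice, Zbtb16 in 2 and Cd40lg in 2.

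The second comparison applied the same receptor cut to both classes, without matching the number or level of receptors. Cd8b1-positive T cells that also had at least 2 of the 4 receptor genes numbered 53, 68, 36 and 251, with median depths of 5019, 5989, 5192 and 2133 UMIs against 4080, 3704, 5192 and 1724 in the NK-receptor T cells. Against them, 46 of 4851 genes were higher in the NK-receptor T cells without coreceptors, or 0.948%, and 41 were lower, or 0.845%, together 1.79%, by edgeR's quasi-likelihood test. The median log2 fold change of all genes was -0.03. Without mouse 4 there were 33 higher and 18 lower, without mouse 3 there were 91 higher and 91 lower, and without mouse 2 there were 29 and 27. The NK-receptor T cells are the same in every comparison, and the receptor-matched cells are among the Cd8b1-positive T cells above, so the comparisons share samples.

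Kcnq5 was at 17.8, 42.6, 17 and 25.8 CPM in the receptor-matched cells, a log2 fold change of 4.55 ± 0.297 (edgeR adjusted p = 5.88e-08). Zbtb16 was at 7.11, 27.6, 63.9 and 19.8 CPM in them (2.78 ± 0.395, adjusted p = 7.06e-04), and Cd40lg at 3.56, 52.7, 0.0 and 30.4 CPM (2.54 ± 0.455). None of these 3 genes overlapped between the groups. Over all 4851 genes tested, 35 had every NK-receptor value above every receptor-matched value, and 21 had every value below. Kcnq5, Zbtb16 and Cd40lg had 43, 41 and 42 UMIs in the receptor-matched cells. They would not have passed the filter on low counts through that class alone, so their values are a description. Gzmk was at 292, 213, 247 and 319 CPM and lower in the NK-receptor T cells, with a log2 fold change of -2.01 ± 0.264 (adjusted p = 3.87e-04), and Itga4 had one of -1.89 ± 0.247. Runx3 (-1.20), Nkg7 (-1.26), Themis (-1.24), Pdcd1 (-1.67) and Cd160 (-1.78), an inhibitory receptor gene, were lower as well. Without mouse 4, Runx3, Nkg7, Pdcd1 and Cd160 lost their calls, Nkg7 also did so without mouse 1 or 2, and Cd160 without mouse 2. Pdcd1 and Cd160 would not have passed the filter on low counts through the NK-receptor T cells alone, so their values are a description.

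Further genes among the 10 highest here were Ly6c1, St6galnac3, Kctd12, Glis3, Socs2, Tmem64 and Asb2. Of these, only St6galnac3 would have passed the filter on low counts through the receptor-matched cells alone, so the values of the others are a description. St6galnac3, a sialyltransferase, was at 1150, 1247, 352 and 411 CPM against 46.2, 160, 115 and 137 CPM, without overlap (2.48 ± 0.366, edgeR adjusted p = 9.36e-04). Ly6c1, a surface protein of memory T cells and of endothelium, was at 42.1, 126, 212 and 225 CPM against 10.7, 25.1, 12.8 and 22.8 CPM (2.98 ± 0.324). Ly6c1 was at 2697, 3612, 1277 and 9882 CPM in endothelial-marker cells, and at 53.9, 91.0, 240 and 84.8 CPM in the NK-receptor T cells without an endothelial UMI. The latter were below the level of all NK-receptor T cells in mice 2 and 4 and above it in mice 1 and 3, and the part of endothelial RNA in this difference was not tested. Klrc2 was higher here too (1.16 ± 0.252), with the same doubt as above. Of the gamma-delta list 2 of 9 genes were tested here and 0 passed in edgeR, with 1 at an unadjusted p under 0.05 and 0 called by DESeq2.

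The third comparison, against Cd4-positive T cells (32, 48, 63 and 247 cells), asked how the cells differ from helper T cells. Of 4978 genes, 50 were higher in the NK-receptor T cells, or 1%, and 40 were lower, or 0.804%, together 1.81%, with a median log2 fold change of -0.03. Cytotoxic genes led the higher ones, and the costimulatory genes Tnfrsf4 and Tnfsf8 led the lower ones. Without mouse 1 the counts were 29 and 26, and without mouse 4 they were 36 and 22. Without the mouse block edgeR called 0 higher genes, with 68 at an unadjusted p under 0.05, and 1 lower. Over all 4978 genes tested, 32 had every NK-receptor value above every Cd4-positive value, and 27 had every value below.

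Of 11 cytotoxicity genes tested, 5 were higher and 0 lower, with a median of 0.78. Gzma was at 47.1, 0.0, 92.6 and 2.89 CPM in Cd4-positive T cells, below every NK-receptor value (5.09 ± 0.545, edgeR adjusted p = 1.38e-04). Prf1 was at 36.6, 20.2, 13.2 and 5.78 CPM in them (2.98 ± 0.382) and Gzmb at 178, 252, 362 and 7.23 CPM (2.36 ± 0.415). Both overlapped because mouse 4 was low in both classes, and both were higher in 4 of 4 mice. The death ligand gene Fasl (1.12) and the granzyme B inhibitor gene Serpinb9 (1.08) were the other two. Gzma and Prf1 had 46 and 22 UMIs in Cd4-positive T cells. Neither would have passed the filter on low counts through that class alone, so their values are a description. Kcnq5 was at 288, 225, 84.7 and 111 CPM in Cd4-positive T cells, well above its level in Cd8b1-positive T cells, and was still higher in the NK-receptor T cells (1.91 ± 0.199, adjusted p = 1.18e-04). Zbtb16 was higher by 2.41 ± 0.409 (adjusted p = 0.0065) and Txk by 1.90 ± 0.232. With 52 UMIs in Cd4-positive T cells, Zbtb16 has the same limit as Gzma and Prf1. Cd40lg was lower than in Cd4-positive T cells, where it was at 460.1, 376, 217 and 217 CPM, a log2 fold change of -1.18 ± 0.227 (adjusted p = 0.0133). It lay below all Cd4-positive values only in mice 2, 3 and 4, lost its call without mouse 1 or 2, and was looked up after its values in the other comparisons were seen.

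Tnfrsf4, which encodes OX40, was at 0.0, 0.0, 3.59 and 9.59 CPM in NK-receptor T cells against 73.2, 80.6, 460 and 201 CPM (-5.04 ± 0.388, edgeR adjusted p = 5.78e-06). Tnfsf8, the CD30 ligand gene, was at 0.0, 15.8, 0.0 and 11.2 CPM against 52.3, 208, 196 and 75.2 CPM (-3.66 ± 0.469). For both genes all NK-receptor values were below all Cd4-positive values. Tnfrsf4 had 13 UMIs in all the NK-receptor T cells against 351, and Tnfsf8 had 15 against 198. Both passed the filter only through the class where they are high, so their values are a description, and the size of the Tnfrsf4 fold change depends on the prior count of the fit. Ctla4 was at 182, 31.6, 348 and 71.9 CPM against 476, 420, 775 and 338 CPM (-1.85 ± 0.276). Cd5 (-2.0), Cd6 (-0.87) and Bcl11b (-0.80) of the alpha-beta list were lower, as were the signalling receptor genes Slamf1 (-1.98) and Slamf6 (-1.59). The calls of Fasl, Serpinb9 and Bcl11b were each lost without mouse 1, 2 or 4, that of Cd6 without any 1 mouse and that of Slamf6 without mouse 4.

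A last comparison used the class closest to NK cells, barcodes with at least 2 of the 4 NK receptor genes. They had no UMI of Cd3d, Cd3e, Cd3g, Trac or Trbc2, and none of Cd4, Cd8b1, Csf1r, Cd79a or Pecam1. The class held 4, 12, 61 and 166 cells, and mouse 1 was left out for having under 10. Defining NK markers were not seen in every mouse. Of the 12 genes listed for NK cells, 2, 4, 12 and 12 had a UMI in mice 1 to 4. Their summed levels were 667, 1704, 12810 and 6261 CPM. Ncr1 had no UMI in mice 1 and 2 and was at 233 and 85.1 CPM in mice 3 and 4. Eomes was at 0.0, 0.0, 221 and 1.61 CPM in mice 1 to 4, and H2-Aa, an MHC class II gene of antigen-presenting cells, at 6552, 7535, 1086 and 10920 CPM. The class is therefore called receptor-positive non-T cells. Of 5672 genes, 95 were higher in the NK-receptor T cells, or 1.67%, and 144 were lower, or 2.54%, together 4.21%. Without mouse 4 edgeR called 0 in either direction, with 138 and 167 genes at an unadjusted p under 0.05, without mouse 3 it called 301 higher and 506 lower, and without mouse 2 it called 36 and 47.

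The T cell genes outside the rule were higher in the NK-receptor T cells. Of 9 alpha-beta genes 8 were higher, with a median of 3.14, among them Bcl11b at 316, 169 and 213 CPM in mice 2 to 4 against 85.2, 4.75 and 8.03 CPM (3.67 ± 0.534, edgeR adjusted p = 0.00586). Lat, the T cell receptor adaptor, was at 142, 151 and 126 CPM against 0.0, 26.1 and 8.03 CPM (3.14 ± 0.461). Neither gene overlapped. Since the rule asked for CD3 and receptor genes, and the other class for their absence, such a difference is close to the rule itself. Over all 5672 genes tested, 267 had every NK-receptor value above every value of the other class, and 174 had every value below. With 3 mice, non-overlap was thus not particular to Bcl11b and Lat and is a description. Tyrobp, which encodes the NK and myeloid adaptor DAP12, was at 31.6, 100.5 and 158 CPM against 767, 580 and 1986 CPM (-3.55 ± 0.399), and Syk (-3.02) and Fcer1g (-2.47) were also lower. Ncr1 was lower too (-3.34, edgeR adjusted p = 0.0109). The 10 genes named as lowest were Rnase6, Ifitm1, Batf3, H2-DMb1, Pkib, Rnd3, H2-Aa, Pid1, Plbd1 and Bcl11a. Only H2-Aa of these would have passed the filter on low counts through the NK-receptor T cells alone, so the others are a description. With H2-Aa cells left out of the other class (mice 3 and 4), 14 named and listed genes kept their call, 17 lost it and 3 reversed. Of 8 tissue residency genes tested, Cxcr6 (2.38), Itga1 (2.11) and Cd69 (1.29) were higher and 0 were lower. Bcl11b, Lat, Cxcr6 and Itga1 had 14, 16, 70 and 19 UMIs in the receptor-positive non-T cells. They would not have passed the filter on low counts through that class alone. Syk had 24 UMIs in the NK-receptor T cells and would not have passed through them alone. The values of these genes are a description.

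Within the NK-receptor T cells, those with and without a gamma or delta constant transcript were set side by side as a description. They numbered 6, 5, 22 and 113 with and 12, 11, 21 and 460 without. Zbtb16 was at 285, 773, 249 and 127 CPM with and at 69.3, 424, 110 and 96.0 CPM without. Clnk was at 107, 343, 489.5 and 71.7 CPM with and at 46.2, 200, 169 and 16.0 CPM without. Both were higher with gamma or delta transcripts in 4 of 4 mice. Kcnq5 was at 1926, 773, 217 and 458 CPM with and at 485, 1447, 253 and 417 CPM without, and Cd40lg at 464, 215, 24.1 and 139 CPM with and at 69.3, 125, 77.9 and 138 CPM without. Neither gene kept 1 direction over the 4 mice. In mouse 3, the mouse with the highest Gzmb, the cells with gamma or delta transcripts had 8843 CPM of it and those without had 3135 CPM, while in mice 1, 2 and 4 the cells without had more.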

How the data were processed

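Single-cell RNA was measured in 4 kidneys with 10x Genomics libraries of polyadenylated RNA, per the labels. The values are raw UMI counts per gene and barcode, made by the authors with Cell Ranger 9.0.1 per the file headers. Seurat 4.1.1 is named in the submitters' processing notes without a role. No genome build is named in the sources used here. The deposited matrices hold 57132 genes and 66762741, 64757026, 105436725 and 36831995 counts in mice 1 to 4. Barcodes with at least 500 UMIs, at least 300 genes and under 50% mitochondrial counts were kept, which left 7085, 8858, 12904 and 12092 cells. No doublet caller was run, and only the marker exclusions of the rule act on doublets.

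Counts were summed per class and mouse, where a class had at least 10 cells, and compared with edgeR 4.0.16 in R 4.3.3 (TMM scaling, filterByExpr, quasi-likelihood test). The mouse was a block because both classes come from the same animal. The threshold was an adjusted p of 0.05 over all genes tested. CPM use the class's total count. Intervals are exact (Clopper-Pearson, 95%), and a count of 0 allows 3 counts. The edgeR test was run on simulated counts, drawn with the same dispersion for every gene and no difference between mice. That run does not show how the test behaves on these data.

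The cells and the gene lists were chosen with earlier results of these data known. Named genes were the 10 largest differences in each direction among genes past the threshold, with the same direction in every mouse and at least 50 CPM on average in the higher class, without the 14 genes of the class rules, receptor segments and unnamed gene models. Members of the 25 gene lists were named too, 4 of them matched by identifier. Alternatives were DESeq2 1.42.0, no TMM, no filter, no block, 1 fit over all classes, thinning to 1000 UMIs, stricter cell rules and leaving out each mouse. The series calls the mice independent replicates. The results of 2 gene lists are not reported here.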

Additional observations from a re-analysis of the deposited data

Results flagged for a closer look

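In 9 of 90 groups of 4 mice, 1 mouse lay far from the other 3, where chance gives about 1 in 20. The NK-receptor T cells were 4.74% of all cells in mouse 4 and T cells 24.1%, both far above mice 1 to 3. The share of NK-receptor T cells with both a gamma or delta constant gene and Zbtb16 was lowest in mouse 4, at 4.36%. Zbtb16 stood out in mouse 2 at 552 CPM in the NK-receptor T cells, as did Slamf6 at 63.1 CPM. The share with Trac, Trbc1 or Trbc2 was lowest in mouse 2, at 75.0%. In mouse 3, Gzmb at 5687 CPM, Fcer1g at 1206 CPM and the share of cells with both Zbtb16 and Cd8a, at 6.98%, were far above the other mice. In mice 1 and 2 each cell is a large part of the share, as these mice had 18 and 16 of the cells.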

How the results depend on the processing

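The 18, 16 and 43 cells of mice 1 to 3 limit every comparison, and the cause of each shift below was not tested. Over the named and listed genes, 1826 values under the alternatives kept their direction and side of the threshold, 624 lost the call and 3 reversed. The 3 were H2-Aa (11.03, by construction), Il18r1 (-0.16) and Zeb2 (0.15), all when the receptor-positive non-T class was restricted to cells without H2-Aa, an alternative chosen after seeing the data, as were those on Cd8a and gamma or delta UMIs. Counts are higher and lower genes.

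Against Cd8b1-positive T cells (76 and 60) there were 49 and 25 with DESeq2, 131 and 145 without a filter, 3 and 1 without the replicate block, 44 and 17 in 1 fit over all classes, 28 and 36 after thinning, and 42 and 24 without barcodes holding other cells' markers (2 mice). With at least 20 cells, which left mice 3 and 4, 29 were lower. Leaving out 1 mouse gave 33 to 121 higher and 8 to 142 lower.

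Against Cd4-positive T cells (50 and 40) there were 104 and 146 without a filter, 0 and 1 without the replicate block, 16 and 11 after thinning, 8 and 4 without barcodes holding other cells' markers, and 76 and 68 with at least 20 cells. The last 2 settings left only mice 3 and 4. Leaving out 1 mouse gave 29 to 71 and 22 to 58.

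Against receptor-positive non-T cells (95 and 144) there were 161 higher without TMM, 215 and 495 without a filter, 0 and 0 without the replicate block (edgeR, 117 and 200 at an unadjusted p under 0.05), 261 and 243 in 1 fit, 5 and 11 after thinning, 36 and 47 with at least 20 cells (mice 3 and 4), 31 and 51 without cells with gamma or delta UMIs, and 42 and 26 without H2-Aa cells (mice 3 and 4). DESeq2, with the block, called 65 and 120. Leaving out 1 mouse gave 0 to 301 and 0 to 506.

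Against receptor-matched Cd8b1-positive T cells (46 and 41) there were 24 lower with DESeq2, 71 higher without TMM, 132 and 124 without a filter, 3 and 1 without the replicate block, 16 and 23 after thinning, 29 and 25 without barcodes holding other cells' markers (mice 3 and 4), 70 and 75 without cells with Cd8a UMIs, and 30 higher without cells with gamma or delta UMIs. Leaving out 1 mouse gave 29 to 91 and 18 to 91.

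With the rule applied after thinning, the mean share of cells with Trgc1 was 3.02% instead of 12.0%, with Trgc2 4.28% instead of 23.4%, with Trgc4 3.57% instead of 21.5%, and with Zbtb16 2.08% instead of 43.8%. Without barcodes holding other cells' markers (3 mice) it was 6.05% for Trgc1, 21.7% for Zbtb16 and 39.9% for Cd8a, instead of 11.4%. That setting left 1, 0, 23 and 488 cells in mice 1 to 4. The value of mouse 1 in these means is thus that of 1 cell, and the Cd8a shift is not interpretable.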
